A study of Homo sapiens with 17 samples.

Results

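Described here are the mRNAs of 10 genes of the mitochondrial genome that encode subunits of the respiratory chain and of ATP synthase. They are counted by gene, although MT-ATP8 and MT-ATP6 share an mRNA. They were chosen by gene name, as MT-ND1, MT-ND2, MT-ND4, MT-ND5, MT-CYB, MT-CO1, MT-CO2, MT-CO3, MT-ATP6 and MT-ATP8. All 10 were found among the 18869 genes of the table, and they are 10 of its 13 mitochondrially encoded protein-coding genes (PCGs). The other 3 are MT-ND3, MT-ND4L and MT-ND6. Each of the 10 reached 5 TPM in both immunoprecipitations (IPs), a filter that 9607 of the 13473 PCGs passed. Ratios, ranks and EPKM of PCGs refer to these 9607 unless stated.

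The study asked which transcripts are held by the nuclear poly(A) binding protein (PABPN) and which by the cytoplasmic one (PABPC), and how much contact with ribosomes each had. HEK293T, an established human embryonic kidney line, carried a doxycycline-inducible construct integrated by lentivirus. RPS2-STAMP cells made the cytidine deaminase APOBEC1 joined to RPS2, a protein of the small cytosolic ribosomal subunit, and Control-STAMP cells made APOBEC1 with no ribosomal protein. All groups received 50 ng/ml doxycycline over 24 h and then 0.1% formaldehyde as crosslinker. RNA was taken from the Input, which had no IP, and after IP with an antibody to PABPN or to PABPC. RPS2-STAMP had 3 samples in each of these fractions, and Control-STAMP had 3 Input, 3 PABPN IP and 2 PABPC IP samples, 17 in all. Cells of a stably integrated line carry the construct at positions that were not analysed here, and induction makes the fusion protein in addition to the cell's own RPS2. According to the study's text both the Input and the IPs were of cytoplasm, whereas the labels mention no separation of nucleus and cytoplasm.

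Human mitochondrial mRNAs are made in the organelle matrix from long transcripts of a circular genome. Cleavage, mostly at the tRNAs that lie between them, frees them, and a mitochondrial poly(A) polymerase adds a short tail that in several mRNAs also completes the stop codon. They are read in the matrix by mitochondrial ribosomes, whose small subunit has its own set of proteins and does not contain RPS2. The poly(A) binding proteins of the IPs belong to the nucleus and the cytosol.

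The gene ends are shown because A residues of the tail, the part a poly(A) binding protein holds, complete the stop codon of some of the mRNAs. The end of a coding sequence need not be the end of its mRNA, and MT-ATP8 ends inside the mRNA it shares with MT-ATP6. By the annotation, for 5 of the 10 mRNAs the gene ends within the last codon and A residues of the tail complete it. For the other 5 the gene holds the stop codon in full. The last base of MT-ATP6 is also the first of MT-CO3. Whether the mRNA of MT-ATP6 keeps its full stop codon depends on where the RNA is cut, which was not examined here. Below are the last 30 bases of the 5 genes that end within the codon, then of 2 that hold it in full. They run 5′ to 3′ on the strand of the mRNA, from GENCODE release 44 on hg38. Capitals mark the encoded bases of the stop codon.
MT-ND1: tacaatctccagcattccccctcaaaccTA
MT-ND2: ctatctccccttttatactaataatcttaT
MT-ND4: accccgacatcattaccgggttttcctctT
MT-CO3: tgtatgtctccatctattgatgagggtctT
MT-CYB: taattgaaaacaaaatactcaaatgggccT
MT-CO1: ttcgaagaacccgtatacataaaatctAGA
MT-ATP6: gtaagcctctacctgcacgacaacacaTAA

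All 10 genes lie on the plus strand of chromosome M. From MT-ND1 (ENSG00000198888), at 3307 to 4262, they run in the order MT-ND2 (ENSG00000198763, 4470 to 5511), MT-CO1 (ENSG00000198804, 5904 to 7445), MT-CO2 (ENSG00000198712, 7586 to 8269), MT-ATP8 (ENSG00000228253, 8366 to 8572), MT-ATP6 (ENSG00000198899, 8527 to 9207), MT-CO3 (ENSG00000198938, 9207 to 9990), MT-ND4 (ENSG00000198886, 10760 to 12137), MT-ND5 (ENSG00000198786, 12337 to 14148) and MT-CYB (ENSG00000198727, 14747 to 15887). None has an intron, so the whole of each TPM is exonic. MT-ATP8 and MT-ATP6 share 46 bases and are carried on 1 mRNA. MT-ATP6 and MT-CO3 share 1 base, and MT-ND4 shares 7 bases with MT-ND4L, again on a common mRNA. APOBEC1 acts on C, and C made up between 30.03% and 36.0% of the bases of each gene, with a median of 33.6%. Over the canonical transcripts of 9592 nuclear PCGs the median was 23.7%, with quartiles of 19.8% and 28.5%. By this measure the mRNAs were richer in the edited base than most nuclear transcripts. The nuclear transcripts were taken whole, with untranslated regions, whereas the mitochondrial genes are coding sequence. Coding sequences alone were not compared.

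The table holds, for each gene and fraction, 1 TPM averaged by the authors and 1 normalized EPKM, a rate of edited reads scaled by gene length and library size after subtraction of the control. TPM is scaled by length, and levels are set side by side between genes on that basis. Such an order is approximate. Genes on a common mRNA differed in TPM, by 3.29-fold for MT-ND4 over MT-ND4L in the Input. Reads may also have been divided with nuclear copies, described below. Because each value is pooled, none has an SD, an n or a test, and no difference given here has a replicate check. Whether neighbours in an order of levels differ beyond the spread of samples cannot be read from the data. The study's methods describe library sizes for its STAMP data as a group, but the table holds no read or edit counts, so the number of reads behind a given value is not known. In bulk RNA, fewer cells with an mRNA and less of it per cell cannot be told apart.

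All 10 mRNAs had their lowest TPM in the PABPC IP and their highest in the PABPN IP, with the Input between. Summed, they reached 50383 TPM in the Input, 23196 after PABPC IP and 200444 after PABPN IP. Of the TPM of every listed gene this was 5.90% in the Input, 2.33% after PABPC IP and 20.5% after PABPN IP. Over all 13473 PCGs alone the shares were 9.98%, 2.44% and 22.5%, in the same order of fractions. The Input share differed most between these scales, since the TPM of all PCGs summed to 504681 of 854272 there, and the non-coding RNA 7SK, named after its value was seen, held 20.4% of the Input. Of the 10 PCGs with the highest TPM, 3 were mitochondrial mRNAs of the set in the Input, 2 after PABPC IP and 8 after PABPN IP.

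Complex I, the NADH dehydrogenase that opens the chain, has 4 of the mRNAs. MT-ND1 encodes the subunit that borders the ubiquinone site, and its TPM was 1254 in the Input, 876 after PABPC IP and 3489 after PABPN IP. MT-ND2, MT-ND4 and MT-ND5 encode the antiporter-like subunits of the proton-pumping membrane arm. MT-ND2 had 932, 580 and 2568 TPM in the same order. MT-ND4, the most abundant of the complex I mRNAs, had 2230, 1186 and 4787 TPM. MT-ND5 was the lowest of all 10 in every fraction, with 479, 238 and 1310 TPM. The 4 mRNAs together made up 9.72% of the TPM of the set in the Input, 12.4% after PABPC IP and 6.06% after PABPN IP. They therefore held their largest share of the set where the set as a whole was lowest.

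Complex III passes electrons from ubiquinol to cytochrome c, and MT-CYB encodes cytochrome b, its mitochondrially encoded subunit. Its TPM was 2169 in the Input, 1038 after PABPC IP and 8308 after PABPN IP, between 4.14% and 4.48% of the set in each fraction.

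Complex IV, cytochrome c oxidase, contributed the 3 most abundant mRNAs of the set in every fraction. MT-CO1 encodes the core subunit in which oxygen is reduced, and had 19312 TPM in the Input, 7230 after PABPC IP and 95994 after PABPN IP. It ranked 1 among PCGs in the Input, 3 after PABPC IP and 1 after PABPN IP, where it held 9.84% of all TPM. MT-CO2 encodes the subunit that takes electrons from cytochrome c and had 9241, 4355 and 23217 TPM. MT-CO3, whose product is a core subunit without redox metals, had 11770, 5535 and 52268 TPM. Together they made up 80.0% of the TPM of the set in the Input, 73.8% after PABPC IP and 85.5% after PABPN IP.

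Complex V, ATP synthase, has MT-ATP6, the subunit that forms the path of protons through the membrane, and MT-ATP8, a small subunit beside it. MT-ATP6 had 1916 TPM in the Input, 1252 after PABPC IP and 4591 after PABPN IP. MT-ATP8, the shortest gene of the set at 207 bases, had 1078, 904 and 3913 TPM. Although both are read from 1 mRNA, the TPM of MT-ATP6 was 1.78 times that of MT-ATP8 in the Input, 1.38 times in the PABPC IP and 1.17 times in the PABPN IP. The bases they share make up 22.2% of MT-ATP8, and the authors' counting left out regions of overlapping genes. For the other shared mRNA, MT-ND4 over MT-ND4L, the same folds were 3.29, 2.09 and 1.91. Genes on a common mRNA thus differed in TPM, and by more in the Input than in either IP.

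**Figure D1:**
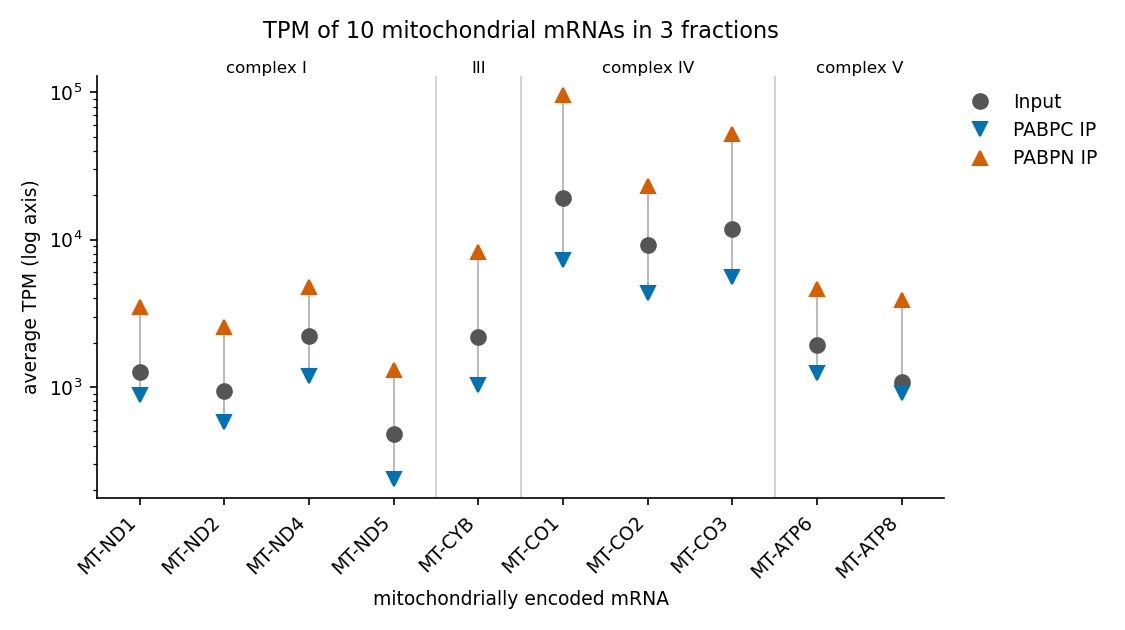
TPM (log axis) of the 10 mRNAs, grouped by respiratory complex, in the Input (circles), PABPC IP (downward triangles) and PABPN IP (upward triangles), each point 1 pooled value and each grey line the range over fractions. In every mRNA the PABPC IP is lowest and the PABPN IP highest, from 238 TPM for MT-ND5 in the PABPC IP to 95994 for MT-CO1 in the PABPN IP.

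The set did not keep a fixed composition across fractions. The most abundant mRNA exceeded the least abundant by 40.3-fold in the Input, 30.4-fold after PABPC IP and 73.3-fold after PABPN IP. MT-CO1, MT-CO3 and MT-CO2 came first, in that order, in all 3 fractions, and MT-ND2 and MT-ND5 came last. Between them the order shifted. MT-CYB was ahead of MT-ND4 and MT-ATP6 in the PABPN IP and behind both in the PABPC IP.

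Each IP was then set against the Input, which both ratios share as denominator, and against the other IP. Over the 9607 PCGs the median log2 TPM ratio was 1.14 for the PABPN IP over the Input, 0.99 for the PABPC IP over the Input and -0.19 for the PABPC IP over the PABPN IP. Ratios are therefore given after subtraction of these medians, so that 0 is the typical PCG, and a log2 value past 0.5 in either direction is counted.

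Against the typical PCG the mRNAs were low in the PABPC IP. All 10 lay below -0.5, as did 18.1% of PCGs (1743 of 9607), and their median of -1.95 corresponds to a 3.86-fold lower ratio. The values ran from -2.41 for MT-CO1 to -1.24 for MT-ATP8. No member was above the 1.89 percentile of PCGs, and for MT-CO1 40 of the 9607 PCGs were lower. Lower than MT-CO1 were all 38 replication-dependent histone genes with at least 5 TPM in both IPs, whose mRNAs have no poly(A) tail. Without centring, 9 of the 10 were below -0.5, against 0.885% of PCGs, and the exception was MT-ATP8 at -0.25. Each mRNA thus had a lower TPM after PABPC IP than before it, also without centring.

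By complex, the log2 ratios of the PABPC IP to the Input were -1.51 for MT-ND1, -1.67 for MT-ND2, -1.90 for MT-ND4 and -1.999 for MT-ND5 in complex I. MT-CYB of complex III was at -2.05. In complex IV, MT-CO1 was at -2.41, MT-CO2 at -2.07 and MT-CO3 at -2.08. In complex V, MT-ATP6 was at -1.60 and MT-ATP8, the closest to 0 of the 10, at -1.24. The 3 complex IV mRNAs and MT-CYB were lower than the 6 mRNAs of the set from complexes I and V, though MT-CYB and MT-ND5 lay close together.

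In the PABPN IP the mRNAs spread from the typical PCG upward. After centring, 0 of the 10 lay below -0.5, against 21.6% of PCGs (2071 of 9607). Above 0.5 lay 4 of the 10, against 24.5% of PCGs (2358 of 9607). These were MT-CO1 at 1.18, MT-CO3 at 1.01, MT-CYB at 0.80 and MT-ATP8 at 0.72. The others were MT-ND1 at 0.34, MT-ND2 at 0.32, MT-ND5 at 0.31, MT-CO2 at 0.19, MT-ATP6 at 0.12 and MT-ND4 at -0.04. The median of the set was 0.33, a 1.26-fold higher ratio than the typical PCG. This count rests on the scale chosen. Above a log2 value of 1 there were 2 mRNAs, MT-CO1 and MT-CO3, against 8.86% of PCGs. Without centring, all 10 were above 0.5, against 84.6% of PCGs, and the median was 1.47. Centred, MT-ND4 was at or near the typical PCG, and uncentred it was 2.15-fold higher in the PABPN IP than in the Input.

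The IPs were also set directly against each other. For the PABPC IP over the PABPN IP all 10 mRNAs were below -0.5, as were 31.5% of PCGs (3028 of 9607). Their median was -2.09, a 4.25-fold difference in favour of the PABPN IP. MT-CO1 was at -3.54, where 4 PCGs were lower, MT-CO3 at -3.05, where 15 were lower, and MT-CYB at -2.81, where 30 were lower. MT-ND5 followed at -2.27, MT-CO2 at -2.22, MT-ND2 at -1.95, MT-ATP8 at -1.92, MT-ND4 at -1.82, MT-ND1 at -1.80 and MT-ATP6 at -1.68. Before centring, the TPM of MT-CO1 was 13.3 times as high in the PABPN IP as in the PABPC IP, and that of MT-ATP6, the mildest, 3.67 times.

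**Figure D2:**
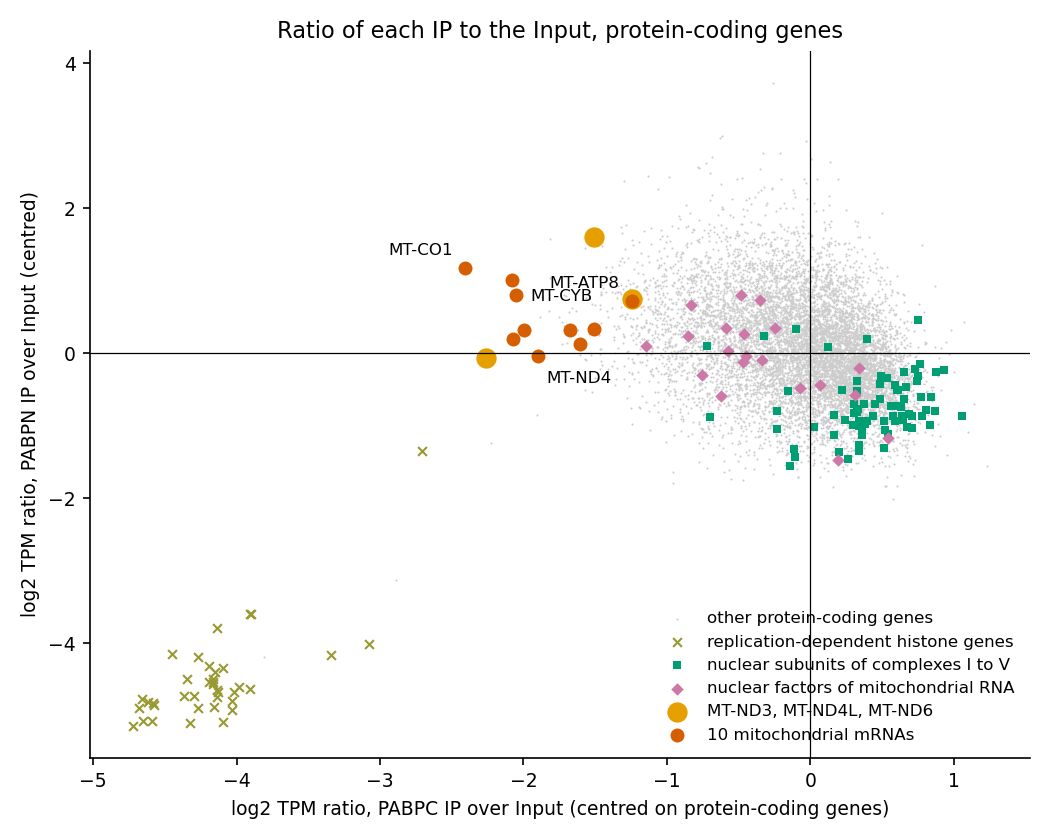
Centred log2 TPM ratio of the PABPC IP over the Input (horizontal) and of the PABPN IP over the Input (vertical) for PCGs that reached 5 TPM in both IPs, each point a gene and each colour a list. The 10 mRNAs sit left of nearly all other PCGs, between -2.41 and -1.24, and from -0.04 to 1.18 on the vertical axis, and MT-ND4L shows as a ring around MT-ATP8.

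In the TPM ratios the groups by annotated stop codon overlapped, with MT-ATP6 counted among those encoded in full. The 5 whose stop codon is completed by A residues had a median centred log2 ratio of 0.34 for the PABPN IP over the Input, ranging from -0.04 to 1.01. For the 5 with an encoded stop codon the median was 0.31, ranging from 0.12, for MT-ATP6, to 1.18. In the ratio of the PABPC IP to the PABPN IP the medians were -1.95 and -2.22, and the ranges overlapped again. MT-CO3, which ends in a single T of its stop codon, and MT-CO1, which ends in AGA, had the lowest such ratio of their groups. In EPKM, described below, 2 of the former 5 and 3 of the latter were above 0 in the Input, 1 and 1 after PABPC IP, and 3 and 0 after PABPN IP. Of PCGs, 78.1%, 82.6% and 72.9% were above 0 in these fractions, and the counts were not tested.

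The 3 mitochondrial PCGs outside the set were low in the PABPC IP too. MT-ND3, MT-ND4L and MT-ND6 encode further complex I subunits, MT-ND6 from the opposite strand with a C content of 7.05%. MT-ND3 had 1768 TPM in the Input, 732 after PABPC IP and 3729 after PABPN IP, MT-ND4L had 679, 568 and 2507, and MT-ND6 had 55.2, 38.6 and 370. The centred log2 ratio of the PABPC IP to the Input was -2.26, -1.24 and -1.51, and that of the PABPN IP to the Input -0.06, 0.75 and 1.61. MT-ND6, the rarest mitochondrial mRNA, thus had the highest PABPN IP ratio of all 13.

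Nuclear PCGs in the same region of the plot of both ratios were of much lower abundance. Those nearest to the median of the set in Euclidean distance over the 2 ratios were CEP192, at 0.0297, MGA, at 0.177, RSRC2, at 0.238, MAP1B, at 0.242, and RIF1, at 0.257. These encode a centrosome scaffold, a transcription factor that pairs with MAX, an arginine- and serine-rich protein, a microtubule-associated protein and a factor of DNA repair choice. Their Input TPM lay between 10.6 for MAP1B and 14.2 for RIF1, against a lowest value of 479 in the set. The members themselves lay at a median distance of 0.424 from that point and at most 0.960 away, a radius that held 226 of 9594 nuclear PCGs (2.36%). Of the 9594, 510 (5.32%) were at or below MT-ATP6 in the ratio of the PABPC IP to the PABPN IP, with a median Input TPM of 8.69 and a highest of 205. Among the 121 nuclear PCGs with an Input TPM at least as high as that of MT-ND5, 0 reached MT-ATP6, 4 were below 0, and the median was 1.48. Of the 121, 29 were replication-dependent histone genes, among them all 4 below 0 (H1-3, H1-4, H2AC11 and H2AC15). Without them, a comparison added after seeing the data, 0 of 92 were below 0, and the median was 1.68. At an Input TPM of 479 or more, no nuclear PCG thus had a ratio as low as any of the 10.

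Most nuclear genes for subunits of the same complexes lay on the other side of the typical PCG. The list of nuclear subunits of complexes I to V held 79 genes of the table. It counted ATP5IF1, an inhibitor of ATP synthase rather than a subunit. In the centred ratio of the PABPC IP to the PABPN IP, 71 of the 79 were above 0.5, against 30.4% of PCGs (2919 of 9607). Below -0.5 were 2, against 31.5%, and the median was 1.33. For the PABPC IP over the Input 38 were above 0.5, against 8.37% of PCGs (804 of 9607), and 2 below -0.5, against 18.1%. For the PABPN IP over the Input 0 were above, against 24.5% of PCGs, and 60 below, against 21.6% (2071 of 9607). Their ratio of the PABPC IP to the PABPN IP had a median of 1.19 in complex I (37 genes), 1.14 in complex II (4), 1.18 in complex III (9), 1.62 in complex IV (11) and 1.26 in complex V (18). Each complex with mitochondrial mRNAs can be read as a pair of values. In complex I, NDUFB10, its nuclear subunit gene with the highest Input TPM, was at 1.496 and the 4 mitochondrial mRNAs were between -2.27 and -1.80. For complex III the values were 1.34 in UQCR10 and -2.81 in MT-CYB. In complex IV, COX8A was at 1.62 and the mitochondrial mRNAs between -3.54 and -2.22, and in complex V, ATP5F1B was at 1.37 and the mitochondrial mRNAs at -1.92 and -1.68. SDHB stood at 1.40 for complex II, succinate dehydrogenase, which has no mitochondrially encoded subunit. In complexes I, III, IV and V the nuclear subunits thus had a median above 0, and every mitochondrial mRNA was below 0. Single nuclear genes of complex I were also below 0, with NDUFS1 at -0.77, NDUFA10 at -0.52 and NDUFV3 at -0.39. The genes at the ends of the list in the PABPN IP over the Input were NDUFB1 at 0.46 and ATP5F1A at -1.56.

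The list of nuclear factors of mitochondrial RNA was not limited to genes whose products make, tail or stabilise it. It also held PNPT1, SUPV3L1, REXO2, PDE12, TWNK and TACO1. Genes of the list fell on both sides of the typical PCG. Of 20 that reached 5 TPM in both IPs, 3 were above 0.5, against 24.5% of PCGs, and 4 below -0.5, against 21.6%, in the PABPN IP over the Input, with a median of -0.07. Highest there was PTCD1, a pentatricopeptide repeat protein of the matrix, at 0.80, and lowest was HSD17B10, a subunit of mitochondrial RNase P, at -1.47. For the PABPC IP over the Input 1 was above, against 8.37%, and 7 below, against 18.1%, with a median of -0.46. In the PABPC IP over the PABPN IP 5 were above 0.5, against 30.4%, and 9 below -0.5, against 31.5%, with a median of -0.39. Replication-dependent histone mRNAs, which end in a stem-loop and have no poly(A) tail, were set beside them as RNA without a tail. All 38 that reached 5 TPM in both IPs were below -0.5 in both IPs over the Input, against 21.6% of PCGs for PABPN and 18.1% for PABPC. The median of the 38 was -4.66 for PABPN and -4.16 for PABPC. The most abundant, H2AC17, had values of -4.49 and -4.34. The mitochondrial mRNAs were below -0.5 in the PABPC IP as well, but less far, with a median of -1.95 and no value under -2.41. The highest value of the 38 histone genes was -2.71. The rest of the 58 histone genes listed did not pass the TPM filter, and some of them lay higher and others lower. In the PABPN IP 0 of the 10 were below -0.5, against 21.6% of PCGs.

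**Figure D3:**
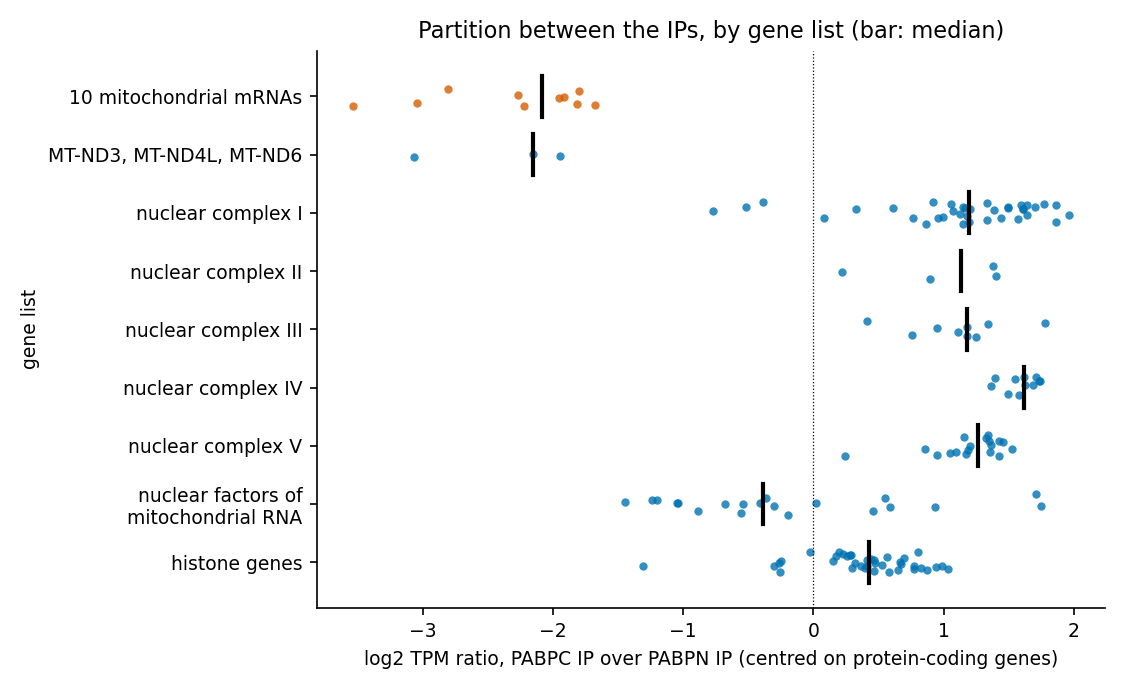
Centred log2 TPM ratio of the PABPC IP over the PABPN IP (horizontal) for each gene that reached 5 TPM in both IPs, by gene list (vertical, points spread within a row for visibility), with a bar at each median. The 10 mitochondrial mRNAs, with a median of -2.09, lie left of 0, and the nuclear subunits of complexes I to V, with medians from 1.14 to 1.62, lie mostly right of it.

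Editing was measured as normalized EPKM, where a value above 0 means more editing in RPS2-STAMP than in the control that was subtracted. Of the 10 mRNAs, 5 were above 0 in the Input, against 78.1% of PCGs, 2 in the PABPC IP, against 82.6%, and 3 in the PABPN IP, against 72.9%. In each fraction the count was thus under the share of PCGs, and the difference was not tested. The set had a median EPKM of 0.00449 in the Input and of 0 in either IP, whereas that of PCGs was 0.0273 in the Input, 0.0501 after PABPC IP and 0.0334 after PABPN IP. The Input median of the set lies between 0 and the 0.00899 of MT-CO1 and is not stable. As a mean it was 0.0603, and without MT-ATP8, MT-ATP6 and MT-ND4 the median was 0.

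Most of the mRNAs were above 0 in a single fraction, and which one differed between them. In complex I, MT-ND1 had 0.0615 EPKM in the Input, 0 after PABPC IP and 0.0810 after PABPN IP, and was the member above 0 in more than 1 fraction. MT-ND2, at 0 elsewhere, had 0.816 in the PABPN IP, a value that 2 of the 9607 PCGs exceeded. MT-ND4 had 0.0779 in the Input and was listed at 0 in both IPs, and MT-ND5 was at 0 in all 3 fractions. The complex I mRNAs thus had no fraction in which all were above 0. MT-CYB of complex III was at 0 in the Input and the PABPC IP and had 0.00151 in the PABPN IP. Within complex IV, MT-CO1 had 0.00899 in the Input and 0 in both IPs. MT-CO2 and MT-CO3 were at 0 in the Input and the PABPN IP and had 0.0821 and 0.0650 in the PABPC IP, the 2 members above 0 there. In complex V, both genes of the shared mRNA were above 0 in the Input and at 0 in both IPs. MT-ATP8 had 0.273 and MT-ATP6 0.182, the highest Input values of the set, with 399 and 763 PCGs above them.

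**Figure D4:**
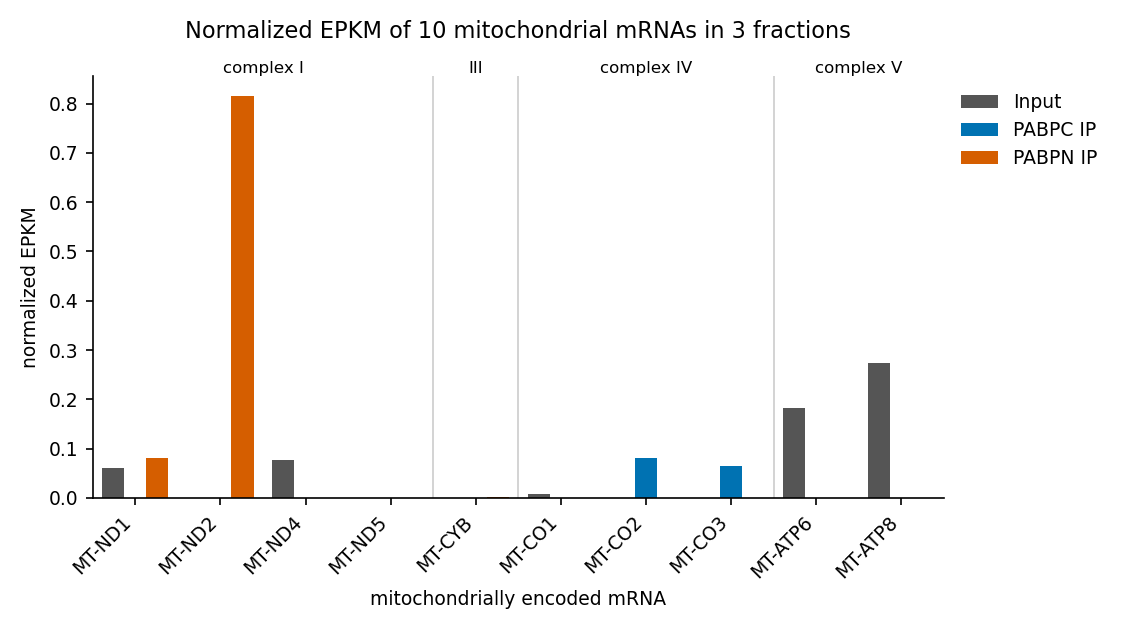
Normalized EPKM of the 10 mRNAs, grouped by respiratory complex, in the Input (grey bars), PABPC IP (blue) and PABPN IP (orange), each bar 1 pooled value and no bar a value of 0. MT-ND2 in the PABPN IP stands at 0.816 and the highest other value is 0.273, for MT-ATP8 in the Input.

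Counted over fractions, 8 of the 10 mRNAs were above 0 in 1 fraction, 1 in 2 fractions, 1 in none and 0 in all 3. Of the 9607 PCGs 50.5% were above 0 in all 3 fractions and 12.7% in 1. Of 16 nuclear PCGs with a TPM at least that of MT-ND5 in all 3 fractions, 12 were above 0 in all 3 and 4 in 2. Isolated values in a single fraction were thus the usual state of the mitochondrial mRNAs and not of these 16 nuclear PCGs.

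The mRNAs were also set beside nuclear PCGs with a TPM at least that of the lowest member in each fraction, MT-ND5. These were not matched in TPM, as their median was 824 TPM in the Input, 436 after PABPC IP and 1646 after PABPN IP, against 2043, 1112 and 4689 for the set. In the Input, 108 of 121 nuclear PCGs at or above the TPM of MT-ND5 (89.3%) had an EPKM above 0, with a median of 0.343, and 0 of the 10 mRNAs exceeded that median. In the PABPC IP it was 563 of 631 (89.2%), with a median of 0.145 that 0 of the mRNAs exceeded. In the PABPN IP it was 14 of 19 (73.7%), with a median of 0.137, and MT-ND2 alone exceeded it. Histone genes made up 29 of the 121, 10 of the 631 and 0 of the 19, and the median of the 29 in the Input was 0.0973, which 2 of the 10 mRNAs exceeded. Without them, again a comparison added after seeing the data, it was 88 of 92 in the Input (95.7%), with a median of 0.438, and 554 of 621 in the PABPC IP (89.2%), with a median of 0.144, and 0 of the 10 mRNAs exceeded either median. Divided by TPM, the highest Input value of the set was 0.253 EPKM per 1000 TPM, for MT-ATP8, against a median of 1.61 over PCGs and 0.419 over the 121 abundant nuclear genes, or 0.516 without histone genes. MT-CO1, the most abundant PCG of the Input, had 0.000465 EPKM per 1000 TPM. MT-ND2 in the PABPN IP reached 0.318, where the median was 0.704 over PCGs and 0.0664 over the 19 abundant nuclear genes.

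**Figure D5:**
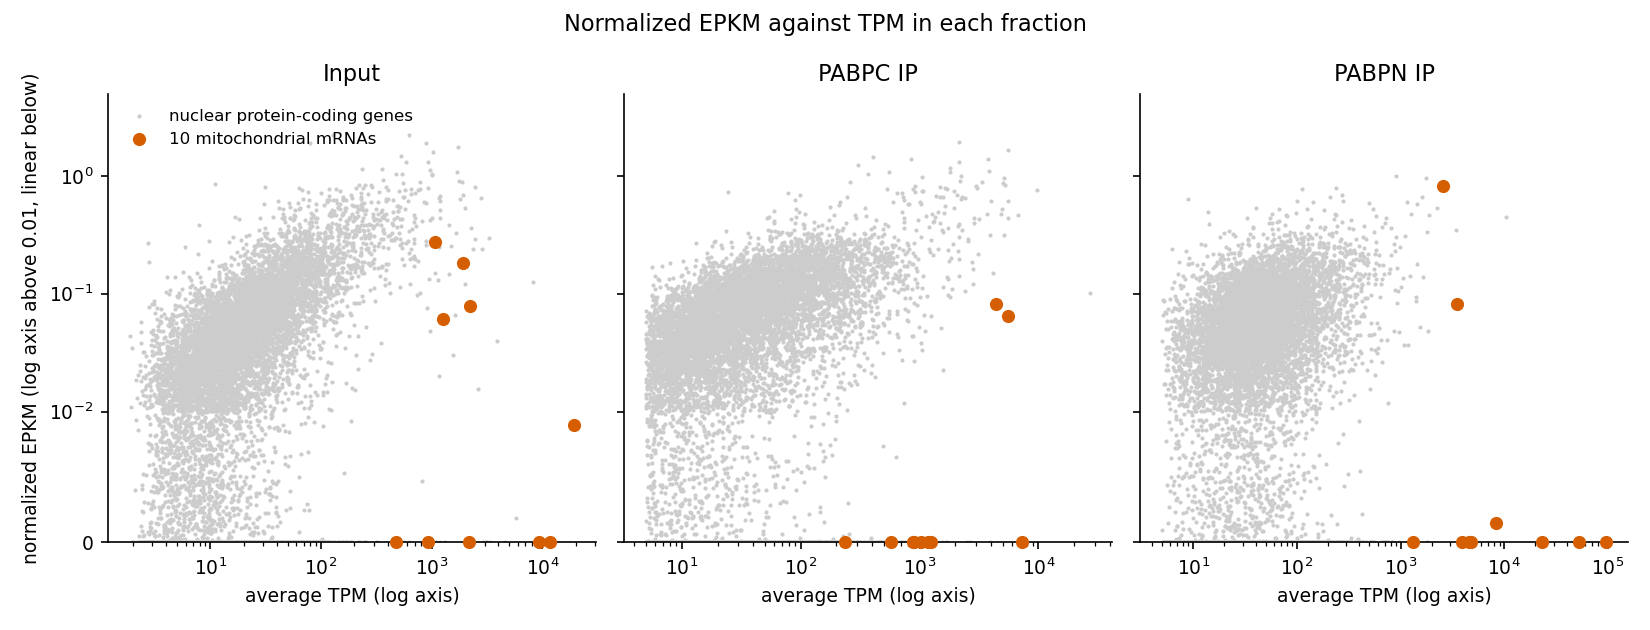
Normalized EPKM (vertical, log axis above 0.01 and linear below) against TPM (horizontal, log axis) in the Input, PABPC IP and PABPN IP, for nuclear PCGs (grey) and the 10 mitochondrial mRNAs (orange), 1 point per gene. Of the 10, 5 in the Input, 8 after PABPC IP and 7 after PABPN IP lie on the line of 0.

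The 3 mitochondrial PCGs outside the set were each above 0 in 1 fraction. MT-ND3 had 0.154 EPKM in the PABPN IP, MT-ND4L 0.0176 in the Input and MT-ND6 0.00390 in the Input, each with 0 in the remaining fractions. Of 22 mitochondrial tRNA genes, which had an EPKM and no TPM, 4 were above 0 in the Input, 7 after PABPC IP and 12 after PABPN IP, with highest values of 0.438, 0.364 and 0.632, and MT-TT and MT-TW were above 0 in all 3 fractions. The 2 mitochondrial rRNA genes were at 0 in the Input and the PABPC IP and above 0 in the PABPN IP. Nuclear subunits of complexes I to V had a median EPKM of 0.165 in the Input, 0.110 after PABPC IP and 0.0643 after PABPN IP, and 73, 72 and 62 of the 79 were above 0, against 78.1%, 82.6% and 72.9% of PCGs. The mitochondrially encoded subunits had lower medians, a difference that was not tested, and single values overlapped. MT-ATP8 and MT-ATP6 exceeded the Input median of the nuclear subunits, and MT-ND2 in the PABPN IP exceeded all 79, of which the highest was at 0.373.

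Nuclear copies of mitochondrial genes limit what each value can be assigned to. The table lists 15 pseudogenes derived from mitochondrial genes. The 3 with the highest Input TPM lie together on chromosome 1 of hg38, plus strand. MTND2P28 (629640 to 630683) matches MT-ND2 over its whole length with 98.4% identity and had 140, 78.0 and 328 TPM in the Input, PABPC IP and PABPN IP, between 12.8% and 15.0% of the TPM of MT-ND2. MTATP6P1 (633696 to 634376) matches MT-ATP6 with 98.5% identity, and its 111, 93.7 and 382 TPM were between 5.80% and 8.32% of those of MT-ATP6. MTCO1P12 (631074 to 632616), with 98.6% identity to MT-CO1, had 37.5, 15.2 and 207 TPM, at most 0.216% of MT-CO1. The centred log2 ratio of the PABPC IP to the PABPN IP was -1.88 for MTND2P28 beside -1.95 for MT-ND2, -1.83 for MTATP6P1 beside -1.68 for MT-ATP6, and -3.58 for MTCO1P12 beside -3.54 for MT-CO1. In the ratios to the Input MTATP6P1 lay further from its gene, at 0.64 beside 0.12 after PABPN IP and at -1.24 beside -1.60 after PABPC IP. In EPKM, MTND2P28 was at 0 in the Input and the PABPC IP and had 0.160 in the PABPN IP, the fraction in which MT-ND2 had 0.816. MTCO1P12 had 0.0904 in the PABPC IP alone, where MT-CO1 was at 0, and MTATP6P1 was at 0 throughout. Of the 15 copies 3 were above 0 in the Input, 3 after PABPC IP and 12 after PABPN IP. The shares of PCGs above 0 were 78.1%, 82.6% and 72.9% in the same order, and the differences were not tested. Reads from near-identical copies may have been divided between them, and the part of this in the TPM and EPKM of MT-ND2, MT-ATP6 and MT-CO1 was not tested.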

How the data were processed

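RNA of HEK293T cells was sequenced from the Input, PABPC IP and PABPN IP, and 1 table of the whole series was used. Per the labels and the methods, STAR was used by the authors to align reads to hg38, and C-to-U edits scoring at least 0.5 in confidence were kept. Normalized EPKM, as deposited, is a signal scaled by length and library size, from which the authors subtracted editing in the control. It holds no value below 0, and how replicates were combined is not given in the sources used here. The deposited TPM columns were handled as a score, since each gene repeats its TPM on 3 rows. The authors counted reads with featureCounts 2.0.2 (minimum overlap 20) on an annotation derived from GENCODE release 34 without overlapping regions and readthrough transcripts, added exonic to intronic TPM, and averaged each fraction, over which samples is not given. TPM was absent for 1964 genes.

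Computed here were log2 TPM ratios with no pseudocount, centred on the median of PCGs that reached 5 TPM in both IPs, with a threshold of 0.5 on log2, and counts, medians and percentiles. The ratio step was tested on simulated data. Pseudogenes were aligned to their mitochondrial genes by local alignment. Positions and sequences came from GENCODE release 44, in which 18806 of 18869 genes were found by identifier. The genes named were the 13 mitochondrially encoded PCGs, the 5 nearest nuclear PCGs, of each gene list the gene with the highest Input TPM and those with the highest and lowest PABPN IP ratio, and the 3 most abundant nuclear copies. The lists were the other mitochondrial PCGs, mitochondrial rRNA and tRNA genes, nuclear subunits of complexes I to V, nuclear factors of mitochondrial RNA, histone genes and nuclear copies. Members and lists were chosen with earlier results of these data known. Alternatives changed the threshold, centring, filter, pseudocount and gene set, and those without MT-CO3, like the comparisons without histone genes, were added after seeing the data. Python 3.11.15, NumPy 2.4.6, pandas 2.3.3, Biopython 1.88 and matplotlib 3.10.9 were used.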

Additional observations from a re-analysis of the deposited data

How the results depend on the processing

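A log2 median was counted as moved from 0.1 upward and any other value when it changed by more than a factor of 1.5, and of 54 alternatives over 15 results 38 stayed within these limits and 16 did not, with 0 changes of sign. Of the 54, 48 were planned and 6, which also left out MT-CO3, were chosen after seeing the data. For the PABPN IP over the Input, the number of mRNAs past the threshold was 4 as reported, 2 with a log2 threshold of 1 and 10 without centring. The shares of PCGs past it were 24.5%, 8.86% and 84.6% in the same order. The median log2 ratio of the mRNAs was 0.33 as reported, 1.47 without centring and 0.17 when centred without a filter on low TPM. For the PABPC IP over the Input, the median was -1.95 as reported and -0.96 without centring, and for the PABPC IP over the PABPN IP it was -2.09 as reported, -2.28 without centring and -1.87 when centred without the filter. In these cases the reference of the ratio, or the threshold, differs by construction. The median EPKM of 0.00449 in the Input became a mean of 0.0603, and was 0 without MT-ATP8, MT-ATP6 and MT-ND4, whose genes overlap another by more than 1 base. MT-CO3, which shares 1 base with MT-ATP6, was kept in that alternative. Without MT-CO3 as well, the median EPKM was again 0 in the Input and 0.000754 in the PABPN IP. The means in the PABPC IP and the PABPN IP were 0.0147 and 0.0898 beside medians of 0. The share of TPM in the Input was 5.90% over all genes, 9.98% over PCGs and 3.91% without the overlapping genes and MT-CO3, and that in the PABPC IP was 2.33% as reported and 1.44% without these 4 genes. The numbers of mRNAs with an EPKM above 0, and those past the threshold in the ratios with the PABPC IP, changed by no more than a factor of 1.5. The largest of these changes was from 3 to 2 mRNAs in the PABPN IP with an EPKM above 0.01, a factor of exactly 1.5, where MT-CYB at 0.00151 dropped out. No paired analysis was possible because 1 pooled value stands for all replicates of a fraction, and for the same reason no replicate could be left out in turn. The table holds no counts, so the number of reads behind a given value is not known, and how differences below 0 were handled is not stated. An EPKM of 0 may therefore stand for no editing, for editing no higher than in the control, or for a value too small to detect.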
